A study of Mus musculus with 22 samples.

Results

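Mouse embryonic stem cells that lack NF45 were compared with NF45 WT cells over the 11481 genes, of 22330 listed, that reached 1 FPKM in at least 2 of the 4 poly(A) libraries. FPKM counts sequenced fragments, scaled to transcript length and library depth, so it is a level per length. Of these genes 10797 reached the minimum in all 4 libraries, while 223 passed only through both KO libraries and 149 only through both WT libraries, which largely sets their direction. Of the genes named below with a fold change, Cdkn1c, Igfbp5, Krt7, Lef1, Neurod1, Slc22a18 and Spink1 are among the former and Bmp4, Hoxb9, Id1, Id3 and Nnat among the latter. Just inside the minimum, 122 genes had a second-highest level from 1 to 1.1 FPKM, and just outside it 155 had one from 0.9 to 1.

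The series holds 22 libraries of 8 groups and addresses what NF45 and its partners NF90 and NF110 do in these cells. The groups used here are NF45 WT and NF45 KO (2 libraries each, TruSeq Stranded mRNA kit from 1 µg of RNA) and, for 1 contrast, the input RNA of NF90/NF110 WT and NF90+NF110 KO cells (3 libraries each, ribosomal RNA depletion). The input RNA of NF110 KO cells (3 libraries) entered the fit of that contrast only for its estimate of the spread. All of these groups grew in serum with 1000 U of the cytokine LIF, 1 µM of the MEK inhibitor PD0325901 and 3 µM of the GSK3 inhibitor CHIR99021, so the controls carry these agents too. The labels do not say how the alleles were made, how many clones stand behind a genotype or whether libraries came from separate cultures. The p-values therefore measure the spread between these libraries, which may be technical. In bulk RNA a lower level in every cell and fewer cells of 1 kind cannot be told apart.

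NF45, the product of Ilf2, pairs through its DZF domain with NF90 and NF110, which carry double-stranded RNA-binding domains. The pair is known for roles in transcription, RNA processing and translation. Naive stem cells in such a medium express pluripotency factors under LIF and Wnt signalling while FGF and ERK signalling is held down by the MEK inhibitor. Stress programmes that recur below are that of ATF4, a transcription factor that raises amino acid uptake and synthesis when amino acids are short or the endoplasmic reticulum is stressed, and that of p53, which restrains growth after damage.

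Library depth was 49.1 to 68.8 M reads in genes. The KO libraries lay closer to each other (median absolute log2 difference 0.0624) than the WT libraries (0.133). By limma, at a Benjamini-Hochberg adjusted p under 0.05, 3171 genes changed (27.6%). Of these, 1338 were higher in KO (11.7% of all tested) and 1833 lower (16%). These shares are the background for each count of listed genes below. The median of all genes was -0.03 on the log2 scale. The libraries did not overlap at 3691 genes that were higher in KO (32.1%) and at 4574 that were lower (39.8%), so a gap between 2 libraries and 2 others is common here. All fold changes are on the log2(FPKM + 1) scale, which understates the change of low genes, and levels are given in the order of library 1 and library 2. The split between higher and lower calls moved with scaling. Higher calls were 42.2% of all calls as deposited, 53.3% with each library centred on its median and 1684 of 3366 calls with each centred on its median per chromosome. With KO library 1 left out limma called 1 gene (2445 at an unadjusted p under 0.05), and with KO library 2 left out 0 (2478), while leaving out a WT library gave 6184 and 5366 calls. The gene called without KO library 1 was Ilf2, so every other call of this comparison was lost when either KO library was left out. Sizes moved less, with a median of 0.52 and 0.55 for p53 targets and of -0.38 and -0.51 for the ATF4 list without KO library 1 or 2, against 0.55 and -0.42 with both. Markers of the expected cells were present, with a summed level of embryonic stem cell markers of 4614 to 5173 FPKM in WT and 5446 to 5659 in KO. Of these 10 markers 2 rose and 2 fell, so the higher sum was not shared by all. Nanog (793 and 774 FPKM in WT and 627 and 621 in KO) was lower in both KO libraries. So was Zfp42 (172 and 156 FPKM in WT and 121 and 126 in KO). Nanog lies on chromosome 6 and Zfp42 on chromosome 8, where the genes as a whole were lower in KO. The median log2 fold changes there were -0.48 and -0.50, and the part of that shift in these genes was not tested.

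The targeted gene and its relatives came first. Ilf2 stood at 264 and 308 FPKM in WT and 3.92 and 3.79 in KO (log2 fold change -5.88, SE 0.09, adjusted p = 0.000581), and the difference from the NF90+NF110 knockout, where Ilf2 moved by 0.03, was -5.91. Zfr, which encodes a zinc finger protein with the same DZF domain, rose, with 46.5 and 48.8 FPKM in WT and 81.9 and 80.9 in KO (log2 fold change 0.76, SE 0.06, adjusted p = 0.00693). Strbp, the testis-enriched member of the family, was at 9.56 and 9.16 FPKM in WT and 8.17 and 8.17 in KO (log2 fold change -0.18, adjusted p = 0.14), and Zfr2 stayed at or below 0.0708 FPKM and was not tested. Among 12 RNA-binding partners 5 fell and 0 rose, against 16% lower among all genes. The count was 2 lower by edgeR, and 4 lower and 1 higher with each library centred per chromosome. In the whole list, family included, 6 fell, and 3 did when no FPKM minimum was set. Dhx9, an RNA helicase that unwinds double-stranded RNA, was the lowest of them, with 214 and 232 FPKM in WT and 115 and 115 in KO (log2 fold change -0.95, SE 0.07, adjusted p = 0.00693). Adarb1, which edits adenosines in double-stranded RNA, fell from 2.19 and 2.13 FPKM to 1.39 and 1.17 (-0.47), and Hnrnpu, a nuclear matrix RNA-binding protein, fell by 0.26 on the log2 scale. In Ilf2, Zfr, Dhx9, Adarb1 and Hnrnpu the WT and KO libraries did not overlap.

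Most listed carriers of amino acids fell without NF45, as did part of the enzymes that load amino acids on tRNA or that belong to serine and one-carbon metabolism. Of 18 carriers for amino acids 11 fell and 1 rose, with a median log2 fold change of -0.79 against -0.03 for all genes. Slc7a5, the light chain of the carrier for large neutral amino acids, had 184 and 181 FPKM in WT and 62.5 and 67.2 in KO (log2 fold change -1.48, SE 0.06, adjusted p = 0.00556). Slc3a2, the heavy chain with which Slc7a5 forms the carrier, had 175 and 151 FPKM in WT and 70.7 and 75.4 in KO (log2 fold change -1.14, SE 0.09, adjusted p = 0.00693). For Slc7a1, which carries arginine and lysine, the levels were 45.8 and 43.5 FPKM in WT and 19.7 and 19.8 in KO (log2 fold change -1.14, SE 0.06, adjusted p = 0.00693). In each of these 3 genes both KO libraries lay far below both WT libraries, and the 2 KO libraries were close to each other. Slc7a7, a partner of Slc3a2 for cationic amino acids, was at 10.8 and 16.6 FPKM in WT and 3.57 and 4.93 in KO (log2 fold change -1.47, adjusted p = 0.019). Slc1a4, a carrier of alanine, serine and cysteine, stood at 10.3 and 9.28 FPKM in WT and 3.54 and 4.01 in KO (log2 fold change -1.17, adjusted p = 0.00693). The sodium-coupled carriers Slc38a2 (78.4 and 80.5 FPKM in WT and 83.1 and 81.3 in KO) and Slc38a4 (129 and 139 FPKM in WT and 122 and 134 in KO) did not pass, with log2 fold changes of 0.05 and -0.07. The shift was therefore not shared by all carriers of the list.

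Of 20 aminoacyl-tRNA synthetases, the enzymes that load amino acids on tRNA, 10 fell and 0 rose, with a median of -0.26. Aars, for alanine, had 376 and 349 FPKM in WT and 165 and 178 in KO (log2 fold change -1.08, SE 0.07, adjusted p = 0.00693). Gars, for glycine, lies on chromosome 6 and had 489 and 488 FPKM in WT and 238 and 265 in KO (log2 fold change -0.96, SE 0.07, adjusted p = 0.00693), or a fold change of -0.44 once centred per chromosome. Iars, for isoleucine, had 137 and 201 FPKM in WT and 83.8 and 91.2 in KO (log2 fold change -0.92, SE 0.19, adjusted p = 0.0325). Both KO libraries were below both WT libraries in all 3, with WT library 2 the highest for Iars. Nars, for asparagine, Tars, for threonine, and Yars, for tyrosine, fell by 0.72, 0.45 and 0.34 on the log2 scale. Of 17 genes of serine, glycine and one-carbon metabolism 6 fell and 1 rose. Psat1, which makes phosphoserine, was at 291 and 263 FPKM in WT and 115 and 151 in KO (log2 fold change -1.07, adjusted p = 0.0133). Mthfd2, a mitochondrial folate enzyme, stood at 176 and 157 FPKM in WT and 48.3 and 54.5 in KO (log2 fold change -1.68, adjusted p = 0.00693). Phgdh, the first enzyme of serine synthesis (6.03 and 5.97 FPKM in WT and 4.75 and 4.92 in KO), and Shmt2 (108 and 130 FPKM in WT and 82.1 and 96.8 in KO) were lower in both KO libraries without passing.

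In the list of the ATF4 pathway and the unfolded protein response, 18 of 34 genes fell and 1 rose, with a median of -0.42, and among its 8 transcription and stress factors 5 fell and 0 rose. Atf4 itself had 480 and 374 FPKM in WT and 190 and 182 in KO (log2 fold change -1.18, SE 0.13, adjusted p = 0.00889). Its partner gene Atf3 had 5.02 and 4.28 FPKM in WT and 1.46 and 1.26 in KO (log2 fold change -1.26, SE 0.11, adjusted p = 0.00741). The stress-induced chromatin factor gene Nupr1 had 102 and 54.6 FPKM in WT and 26.5 and 32.7 in KO (log2 fold change -1.32, SE 0.32, adjusted p = 0.0445). For Nupr1 the WT libraries differed by more FPKM than the lower of them did from either KO library. Chac1, which degrades glutathione, was at 10.3 and 8.1 FPKM in WT and 2.69 and 3.25 in KO (log2 fold change -1.36, adjusted p = 0.0081). Trib3, a pseudokinase induced by ATF4, stood at 21.7 and 15.7 FPKM in WT and 9.34 and 10 in KO (log2 fold change -0.86, adjusted p = 0.0256). On the side of the endoplasmic reticulum, Herpud1, a factor of protein degradation there, had the largest fall of the list (31.9 and 33.6 FPKM in WT and 6.63 and 6.92 in KO, log2 fold change -2.12, adjusted p = 0.00443), followed there by Edem1, which sorts misfolded glycoproteins (-1.26). The chaperone genes Hspa5 (619 and 555 FPKM in WT and 472 and 497 in KO) and Hsp90b1 (954 and 809 FPKM in WT and 805 and 835 in KO) did not pass (-0.27 and -0.10), nor did the asparagine synthetase gene Asns (730 and 648 FPKM in WT and 562 and 584 in KO, log2 fold change -0.26, adjusted p = 0.0641). Sesn2, a brake on mTOR signalling that is also a p53 target, was the 1 gene of the list that rose (29.8 and 25.5 FPKM in WT and 40.6 and 40 in KO). Part of this group lies on chromosomes whose genes were shifted as a whole (given further on), and with each library centred per chromosome the counts were 11 lower and 1 higher among carriers, 9 and 0 among synthetases, and 19 and 1 in the ATF4 list. Under that centring the fall of Slc7a5 was -0.92, that of Aars -0.51, that of Mthfd2 -1.16 and that of Herpud1 -1.56. Outside chromosomes 6, 8, 13, 14 and Y, 7 of 13 carriers, 5 of 15 synthetases and 11 of 26 ATF4 genes fell.

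**Figure D1:**
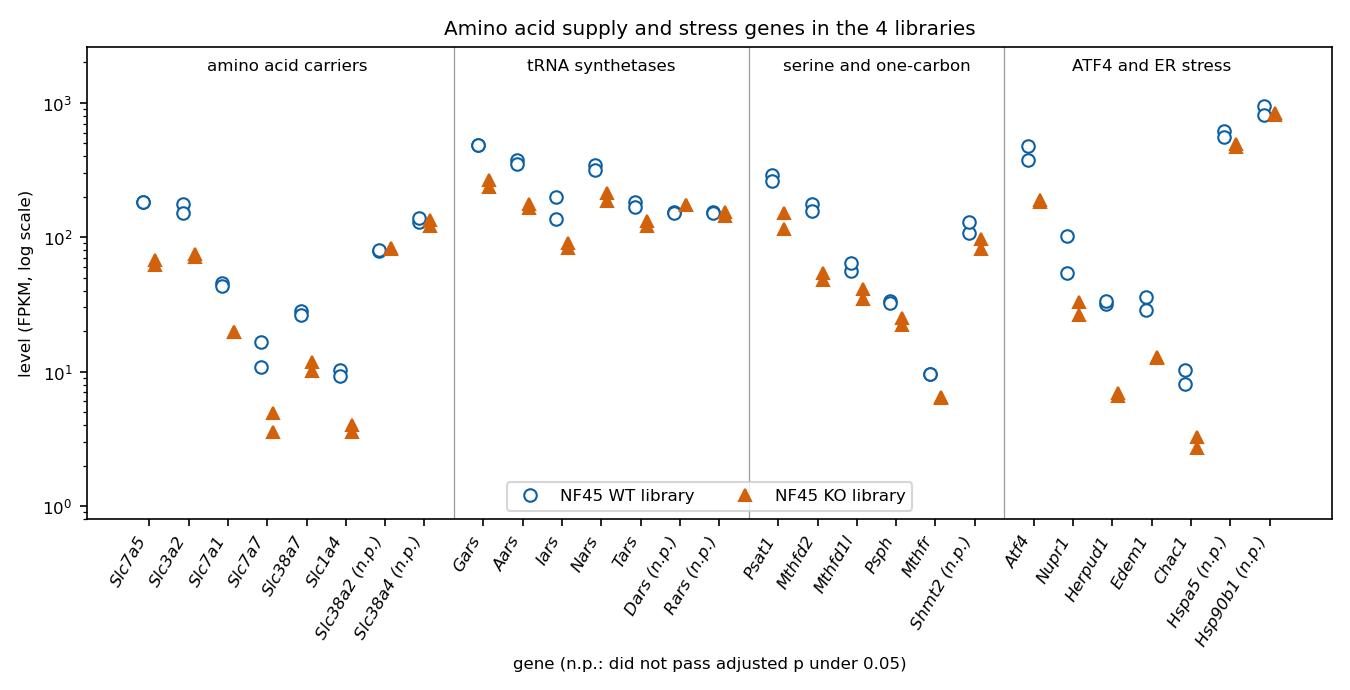
Level in FPKM on a log axis of carriers, tRNA synthetases, serine and one-carbon enzymes and ATF4 or endoplasmic reticulum stress genes, with open circles for the 2 NF45 WT libraries and triangles for the 2 NF45 KO libraries. Slc7a5 lies at 184 and 181 FPKM in WT and at 62.5 and 67.2 in KO, while genes marked n.p., such as Slc38a2, did not pass.

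The promoters of these genes were read for the letters TGATGNAA on either strand, the core of the C/EBP-ATF response element that ATF4 binds. The element was present in 12 of the 34 genes of the amino acid and ATF4 lists that fell and had a promoter in the table (35.3%), in 2 of the 32 that did not fall (6.25%; Asns and Vldlr), and in 238 of the 9249 tested genes with a promoter (2.57%). These shares are descriptions, since a match is neither a site nor a cause. Shown here for their match upstream of a RefSeq start are 5 genes that fell, with the match in capitals. Each window holds 300 bases, from 250 before to 50 after that start (GRCm38.p6), in the direction of transcription. A match reads TGATGNAA on the gene's strand or its reverse complement, and 3.97% of all 32851 promoter windows hold one. They are chr2:119350992-119351291 on the plus strand, chr1:191183284-191183583 on the minus strand, chr7:126625421-126625720 on the minus strand, chr8:111033592-111033891 on the plus strand and chr14:54417895-54418194 on the minus strand.

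Chac1: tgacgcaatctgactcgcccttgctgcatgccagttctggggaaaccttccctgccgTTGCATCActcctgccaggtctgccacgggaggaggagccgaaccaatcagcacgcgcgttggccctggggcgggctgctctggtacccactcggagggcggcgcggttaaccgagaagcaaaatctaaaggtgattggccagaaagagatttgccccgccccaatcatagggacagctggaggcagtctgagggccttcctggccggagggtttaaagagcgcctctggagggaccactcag
Atf3: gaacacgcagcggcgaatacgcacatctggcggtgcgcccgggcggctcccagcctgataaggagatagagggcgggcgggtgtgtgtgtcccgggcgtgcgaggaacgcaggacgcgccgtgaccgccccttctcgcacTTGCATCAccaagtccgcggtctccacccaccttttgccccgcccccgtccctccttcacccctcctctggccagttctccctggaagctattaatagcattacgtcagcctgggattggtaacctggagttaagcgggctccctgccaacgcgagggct
Nupr1: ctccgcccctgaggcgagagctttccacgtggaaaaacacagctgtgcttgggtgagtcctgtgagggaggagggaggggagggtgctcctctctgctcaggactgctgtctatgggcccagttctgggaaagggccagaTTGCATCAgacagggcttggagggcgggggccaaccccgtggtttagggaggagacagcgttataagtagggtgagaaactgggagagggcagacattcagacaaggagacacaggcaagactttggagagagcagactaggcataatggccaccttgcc
Aars: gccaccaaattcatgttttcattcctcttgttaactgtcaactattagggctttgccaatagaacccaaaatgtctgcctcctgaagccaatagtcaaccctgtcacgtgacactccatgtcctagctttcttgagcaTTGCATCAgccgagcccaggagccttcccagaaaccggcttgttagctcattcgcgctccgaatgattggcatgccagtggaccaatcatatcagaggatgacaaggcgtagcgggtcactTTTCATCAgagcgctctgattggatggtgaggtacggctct
Slc7a7: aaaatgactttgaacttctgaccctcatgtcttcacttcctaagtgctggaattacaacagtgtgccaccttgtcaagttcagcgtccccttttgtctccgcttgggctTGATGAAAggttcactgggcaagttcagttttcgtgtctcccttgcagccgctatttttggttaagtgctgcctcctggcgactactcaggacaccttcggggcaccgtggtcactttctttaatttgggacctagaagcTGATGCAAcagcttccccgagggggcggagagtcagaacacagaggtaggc

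The match lay 193 bases before the RefSeq start used in Chac1, 110 in Atf3 and 110 in Nupr1. Aars and Slc7a7 each held 2 matches, the first 112 and 141 bases before that start.

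Targets of p53 were higher in KO. Of 39 tested targets 25 rose and 1 fell, with a median of 0.55 (23 and 0, median 0.46, with each library centred per chromosome). By role, 11 of 14 genes of arrest and feedback, 7 of 11 of cell death and 7 of 14 of metabolism and other functions rose. Among the feedback genes, Mdm2, the ubiquitin ligase that degrades p53, had 53.4 and 40 FPKM in WT and 103 and 100 in KO (log2 fold change 1.13, SE 0.15, adjusted p = 0.0116). Ccng1, a cyclin induced by p53, had 94.4 and 87.8 FPKM in WT and 199 and 186 in KO (log2 fold change 1.07, SE 0.07, adjusted p = 0.00693). Cdkn1a, which encodes the cell cycle inhibitor p21, did not pass (64.5 and 53.2 FPKM in WT and 64.6 and 59.6 in KO, log2 fold change 0.08, adjusted p = 0.604), and its libraries overlapped. Of the genes of cell death, Pmaip1, which encodes NOXA, was at 14.8 and 11.6 FPKM in WT and 35.4 and 40.2 in KO (log2 fold change 1.46, adjusted p = 0.00757). Bbc3, which encodes PUMA, was at 2.95 and 2.42 FPKM in WT and 6 and 6.37 in KO (log2 fold change 0.97, adjusted p = 0.00877). Trp53inp1, a p53-induced stress protein, stood at 53.6 and 34.8 FPKM in WT and 127 and 117 in KO (log2 fold change 1.47, adjusted p = 0.0143). Perp, a membrane protein of the death response, rose by 1.08 on the log2 scale, and Apaf1, the scaffold of the apoptosome, by 0.73. In the metabolic group, Ephx1, an epoxide hydrolase, was at 8.59 and 5.8 FPKM in WT and 31.6 and 29.1 in KO (log2 fold change 1.96, adjusted p = 0.00757), and Trp73, a relative of p53, rose from 1.08 and 0.865 FPKM to 4.45 and 4.07. Tigar, a brake on glycolysis on chromosome 6, was the 1 target lower (-0.59), and centred per chromosome it no longer passed (-0.08). Death genes outside the p53 list moved both ways. Mcl1, a survival factor, rose (136 and 124 FPKM in WT and 260 and 271 in KO, log2 fold change 1.03, adjusted p = 0.00693), Bid, which links death receptors to mitochondria, fell (75.3 and 82.9 FPKM in WT and 36.2 and 33.4 in KO, log2 fold change -1.16, adjusted p = 0.00693), and of 24 genes of the apoptosis machinery 7 rose and 3 fell, several of them also p53 targets.

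The p53 response element, matched with at most 3 mismatches outside its fixed core bases, was found in the promoter of 8 of 21 targets that rose (38.1%), of 2 of 9 that did not (22.2%; Cdkn1a and Tigar) and of 176 of 9249 tested genes (1.90%), and in 1.38% of all promoter windows. These shares too are descriptions, since a match is neither a site nor a cause. The list was made of known p53 targets, so its excess over all genes is no independent evidence. Windows for 3 targets that rose and held the element upstream of a RefSeq start follow, with the element in capitals. They are chr11:40755237-40755536 on the minus strand, chr9:66946163-66946462 on the plus strand and chr16:38458683-38458982 on the plus strand, from RefSeq on GRCm38.p6.

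Ccng1: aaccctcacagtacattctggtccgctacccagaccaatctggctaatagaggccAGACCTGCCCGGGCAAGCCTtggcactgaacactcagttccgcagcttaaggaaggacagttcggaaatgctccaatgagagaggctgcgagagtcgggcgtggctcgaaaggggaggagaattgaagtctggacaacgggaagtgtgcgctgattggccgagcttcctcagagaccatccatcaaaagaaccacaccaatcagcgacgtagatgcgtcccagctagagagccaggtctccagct
Rps27l: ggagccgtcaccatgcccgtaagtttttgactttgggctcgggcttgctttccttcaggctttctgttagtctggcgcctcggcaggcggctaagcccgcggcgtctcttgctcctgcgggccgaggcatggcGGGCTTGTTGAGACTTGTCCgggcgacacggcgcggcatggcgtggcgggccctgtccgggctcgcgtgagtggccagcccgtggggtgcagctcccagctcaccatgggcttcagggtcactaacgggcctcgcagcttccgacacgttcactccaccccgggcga
Cd80: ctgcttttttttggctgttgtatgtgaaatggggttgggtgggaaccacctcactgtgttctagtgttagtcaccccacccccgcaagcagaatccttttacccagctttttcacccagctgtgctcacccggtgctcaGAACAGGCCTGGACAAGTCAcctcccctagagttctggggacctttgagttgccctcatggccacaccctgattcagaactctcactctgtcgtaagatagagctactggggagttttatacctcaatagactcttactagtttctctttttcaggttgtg

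The element began 195 bases before the RefSeq start used in Ccng1 and 117 in Rps27l, with 1 mismatch each, and 111 in Cd80, with 2. Rps27l, a ribosomal protein paralog, had 372 and 355 FPKM in WT and 484 and 479 in KO (log2 fold change 0.40, adjusted p = 0.0114). Cd80, a ligand of T cells, had 3.55 and 1.2 FPKM in WT and 13.3 and 11.9 in KO (log2 fold change 2.10, adjusted p = 0.0207), where the WT libraries differed most.

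Imprinted genes, which are expressed from 1 parental allele, moved in both directions and by large amounts. Of 26 tested 6 rose and 7 fell, with a median of -0.30. For the 21 outside chromosomes 6, 8, 13, 14 and Y the median was -0.04, with 6 higher and 3 lower. Of 14 maternally expressed genes 4 rose and 2 fell, and of 12 paternally expressed genes 2 rose and 5 fell. The 4 maternally expressed genes that rose lie in 1 cluster on chromosome 7. Cdkn1c, an inhibitor of the cell cycle, had 0.26 and 0.146 FPKM in WT and 3.46 and 2.32 in KO (log2 fold change 1.68). Phlda2, a growth inhibitor of the placenta, had 1.31 and 1.31 FPKM in WT and 6.15 and 5.22 in KO (log2 fold change 1.53, SE 0.11, adjusted p = 0.00693). Ascl2, a factor of the trophoblast, had 1.09 and 1.3 FPKM in WT and 5.39 and 6.17 in KO (log2 fold change 1.62, SE 0.11, adjusted p = 0.00693). Slc22a18, a transporter, was at 0.0615 and 0.0447 FPKM in WT and 1.73 and 1.28 in KO (log2 fold change 1.24), and like Cdkn1c it passed the minimum only through the KO libraries, which set its direction. WT levels of all 4 were near or below 1 FPKM, and every KO library was above every WT library. On the same chromosome, the growth factor gene Igf2 had 1.41 and 1.75 FPKM in WT and 9.64 and 6.07 in KO (log2 fold change 1.75, adjusted p = 0.0111), whereas H19, the noncoding RNA next to it, had 40.6 and 4.38 FPKM in WT and 13.5 and 2.88 in KO, with 1 high library in each group and no call (log2 fold change -0.99, adjusted p = 0.553). Dio3, which inactivates thyroid hormone, rose (8.06 and 16 FPKM in WT and 29.3 and 27.7 in KO, log2 fold change 1.25, adjusted p = 0.0464).

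Of the 7 imprinted genes that fell 5 are paternally expressed. Peg3, a zinc finger factor, had 12.4 and 11.4 FPKM in WT and 3.35 and 3.44 in KO (log2 fold change -1.55, SE 0.08, adjusted p = 0.00693). Plagl1, a zinc finger factor of growth control, had 42.5 and 45.6 FPKM in WT and 17.4 and 16.7 in KO (log2 fold change -1.32, SE 0.07, adjusted p = 0.00637). Nnat, a membrane protein of the neural lineage, had 3.45 and 5.42 FPKM in WT and 0.48 and 0.377 in KO (log2 fold change -1.90), and it passed the minimum only through the WT libraries. In Peg3 and Plagl1 both KO libraries were below both WT libraries, at levels above the minimum. Mest, a hydrolase-like protein on chromosome 6, was at 45 and 86 FPKM in WT and 8.06 and 8.33 in KO, and centred per chromosome its fold change was -2.27; Peg10 on the same chromosome fell (-1.38) but did not pass once centred (-0.87). Meg3 (26.1 and 37.3 FPKM in WT and 36.6 and 28.6 in KO), Gnas (230 and 230 FPKM in WT and 283 and 251 in KO) and Impact (60.3 and 69 FPKM in WT and 40.9 and 52.9 in KO) did not pass. With centring per chromosome 6 imprinted genes were higher and 9 lower. In the NF90+NF110 knockout Phlda2 and Slc22a18 moved by -0.81 and -0.82, neither past the threshold, and the difference between the knockouts passed for both (2.34 and 2.06, adjusted p = 0.0125 and 0.00435). Slc22a18 met the FPKM minimum only through the NF45 KO libraries, which set the direction of its NF45 part in that difference. Over the list the difference was more positive in 6 genes and more negative in 3.

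**Figure D2:**
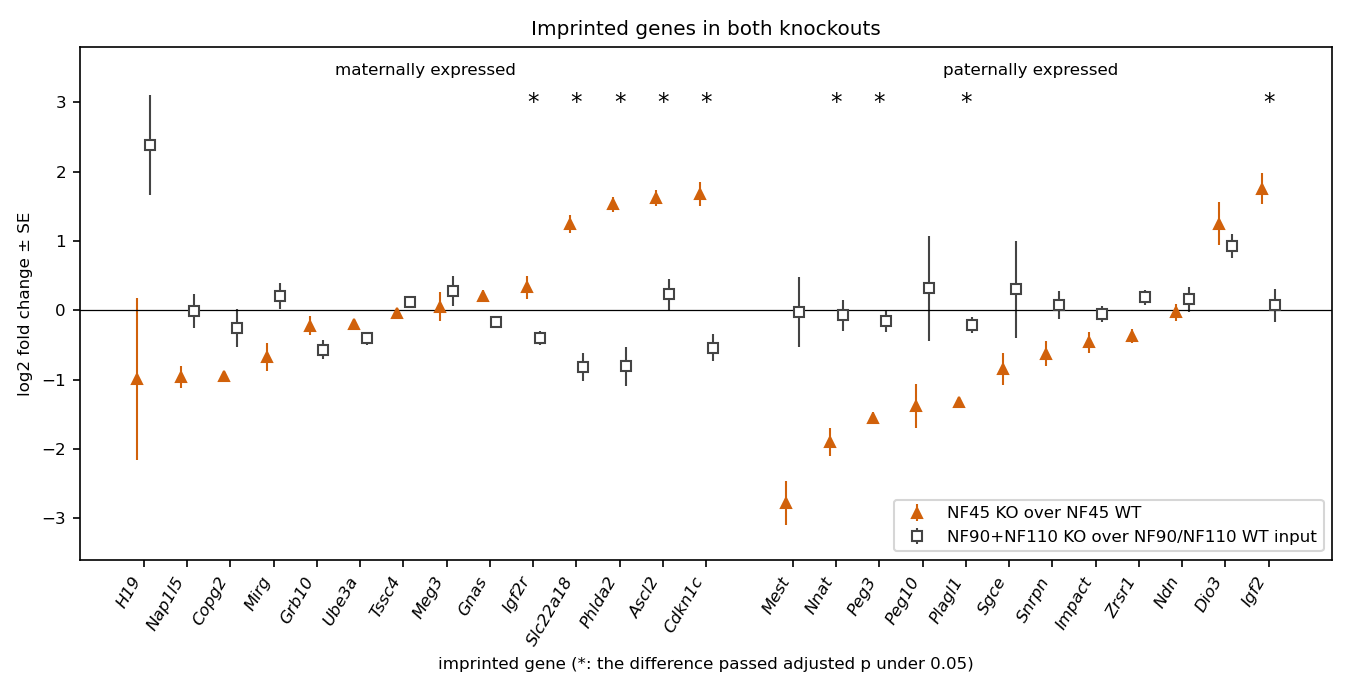
Log2 fold change with its SE of the 26 tested imprinted genes, grouped by the expressed allele, for NF45 KO (triangles) and NF90+NF110 KO (squares), with an asterisk where the difference between the knockouts passed. Phlda2 is at 1.53 in NF45 KO and at -0.81 in NF90+NF110 KO, and Mest is the lowest point, at -2.78.

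Feedback inhibitors of FGF and ERK signalling were lower in KO, although a MEK inhibitor was present in all cells. Of 19 tested genes of the pathway 8 fell and 1 rose, and of its 8 feedback inhibitors 5 fell and 0 rose (median -0.57). Dusp6, a phosphatase of ERK, had 2.46 and 3.03 FPKM in WT and 0.741 and 1.25 in KO (log2 fold change -0.92, SE 0.17, adjusted p = 0.0231). Spry2, a Sprouty inhibitor of the receptor pathway, had 26.6 and 32.8 FPKM in WT and 18.7 and 17.1 in KO (log2 fold change -0.69, SE 0.12, adjusted p = 0.0206). Spry1 and Spred1, of related function, fell by 0.55 and 0.59 on the log2 scale. The ligand gene Fgf4 (191 and 181 FPKM in WT and 197 and 195 in KO) and the ETS factor gene Etv5 (35.8 and 39.1 FPKM in WT and 34.4 and 38.4 in KO) did not pass, while the related Etv4 fell from 12.1 and 11 FPKM to 1.08 and 1.65. Centred per chromosome, 6 genes of the pathway were lower, with 4 of the feedback inhibitors. For LIF signalling, 4 of 17 genes fell and 0 rose, against 16% lower among all genes. Centred per chromosome 8 were lower and 1 higher, and against a fold of 1.2 none of them passed. Klf4, a naive pluripotency factor, had 66.2 and 82.5 FPKM in WT and 48.7 and 45.1 in KO (log2 fold change -0.65, adjusted p = 0.0258). Bcl3, a partner of NF-kB, had 24.5 and 31.9 FPKM in WT and 15 and 16.4 in KO (log2 fold change -0.80, adjusted p = 0.0225). Stat3, the factor LIF activates, and its inhibitor gene Socs3 were lower in both KO libraries without passing (-0.28 and -0.30).

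Of 28 tested genes of Nodal, activin and BMP signalling 6 rose and 4 fell, against 11.7% higher and 16% lower among all genes. The ligand gene Nodal had 46.5 and 51.4 FPKM in WT and 68.2 and 65.8 in KO (log2 fold change 0.45, adjusted p = 0.0175), its co-receptor gene Tdgf1 427 and 401 FPKM in WT and 595 and 656 in KO (log2 fold change 0.59, adjusted p = 0.00977) and the signal transducer gene Smad3 8.43 and 7.37 FPKM in WT and 12.7 and 12.9 in KO (log2 fold change 0.64, adjusted p = 0.0127). Fst, which encodes the activin antagonist follistatin, rose as well (0.92). The BMP ligand gene Bmp4 had 2.01 and 2.57 FPKM in WT and 0.642 and 0.838 in KO (log2 fold change -0.92). Of the BMP target genes, Id1 had 4.31 and 8.31 FPKM in WT and 0.627 and 0.914 in KO (log2 fold change -1.99), while Id2 rose (8.87 and 10.9 FPKM in WT and 26.4 and 21.4 in KO, log2 fold change 1.20, adjusted p = 0.01). Id3 was at 2.21 and 5.98 FPKM in WT and 0.654 and 0.714 in KO and did not pass (log2 fold change -1.49, adjusted p = 0.0511). Bmp4, Id1 and Id3 met the FPKM minimum only through the WT libraries, which set their direction. The KO libraries of Id1 and Id3 lay below both WT libraries, which themselves differed widely. Of 33 Wnt genes 5 rose and 4 fell, near the shares among all genes given above. With centring per chromosome 4 rose and 1 fell. Of the 7 nuclear factors of the pathway 3 were higher. Lef1, which binds beta-catenin on DNA, had 0.251 and 0.198 FPKM in WT and 4.56 and 5.65 in KO (log2 fold change 2.31), and it met the minimum only through the KO libraries. Tcf7, a relative, had 24.5 and 22.2 FPKM in WT and 32.4 and 32.1 in KO (log2 fold change 0.45, adjusted p = 0.0169). Axin2, a general target of the pathway, had 2.21 and 2.45 FPKM in WT and 2.48 and 2.52 in KO (log2 fold change 0.08, adjusted p = 0.579), which did not pass. Of 11 retinoic acid genes 3 rose and 0 fell. They were Aldh1a3, which makes retinoic acid (1.19 and 0.672 FPKM in WT and 3.89 and 4.66 in KO, log2 fold change 1.46, adjusted p = 0.00934), its carrier protein gene Crabp2 (1.05) and the meiotic target Stra8 (1.11).

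Binding proteins of insulin-like growth factors were higher. Of 24 genes of the insulin, IGF and mTOR list 7 rose and 0 fell. Igfbp4 had 16.8 and 7.95 FPKM in WT and 49.2 and 48.2 in KO (log2 fold change 1.98, SE 0.34, adjusted p = 0.0203). Igfbp2, the most abundant of the family here, had 309 and 253 FPKM in WT and 493 and 503 in KO (log2 fold change 0.83, SE 0.11, adjusted p = 0.0112). Igfbp3 rose by 0.69, and Igfbp5, which met the minimum only through the KO libraries, was at a fold change of 0.52, while the receptor gene Igf1r was at 3.35 and 4.21 FPKM in WT and 3.7 and 3.48 in KO and did not pass. Some genes that respond to low oxygen rose, though not the whole list, with 7 of 17 higher and 2 lower. Bnip3, a mitophagy receptor, had 8.91 and 7.13 FPKM in WT and 23.6 and 24.7 in KO (log2 fold change 1.49, SE 0.12, adjusted p = 0.00693). Ndrg1, a stress-responsive gene, had 18.3 and 14.7 FPKM in WT and 38.7 and 45 in KO (log2 fold change 1.29, SE 0.13, adjusted p = 0.00786). The collagen-modifying enzyme genes Plod2 and P4ha1 rose by 1.02 and 0.51, and Egln3, an oxygen sensor, by 1.24. Hif1a itself fell by limma (48.2 and 48.4 FPKM in WT and 40.6 and 36.5 in KO, log2 fold change -0.32, adjusted p = 0.0378). By edgeR 0 genes of this list were called lower, so Hif1a was not. Vegfa stood at 20.8 and 16.6 FPKM in WT and 14.9 and 16.3 in KO without passing. Of 21 genes of glycolysis 6 rose and 3 fell (9 and 3 centred per chromosome). Pfkm, a phosphofructokinase, had 15.2 and 13.8 FPKM in WT and 29.6 and 30.8 in KO (log2 fold change 1.01, adjusted p = 0.00693), whereas the lactate carrier gene Slc16a1 had 59.2 and 63.3 FPKM in WT and 34.9 and 36.8 in KO (log2 fold change -0.76, adjusted p = 0.007). Slc2a3, a glucose carrier on chromosome 6, fell (853 and 924 FPKM in WT and 437 and 488 in KO) by 0.94 on the log2 scale, and by 0.43 once centred per chromosome.

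Genes of the germ line and of other lineages moved both ways. Of 19 germ cell and meiosis genes 6 rose and 2 fell. Mael, a factor of the piRNA pathway, had 2.25 and 2.48 FPKM in WT and 8.55 and 8.9 in KO (log2 fold change 1.53, SE 0.09, adjusted p = 0.00693). Tdrd12, a Tudor protein of that pathway, had 16.4 and 13.8 FPKM in WT and 36.4 and 37.8 in KO (log2 fold change 1.25, SE 0.10, adjusted p = 0.00693). Sycp3, of the axis of meiotic chromosomes, rose by 0.66, and Syce2, of their central element, fell (110 and 88.3 FPKM in WT and 43.1 and 40.1 in KO, log2 fold change -1.23, adjusted p = 0.00783). Of 10 tested genes of the 2-cell embryo 9 rose, but these met the FPKM minimum only through the KO libraries, which fixed their direction. The summed level of 2-cell markers was 0.381 to 1.13 FPKM in WT and 16 to 20.7 in KO, and the Zscan4 genes have near-identical copies among which reads cannot be told apart. In the neural list 2 of 10 rose and 4 fell, with Tubb3, a neuronal tubulin on chromosome 8 (28.7 and 37.1 FPKM in WT and 9.91 and 9.27 in KO), and Nes, an intermediate filament of progenitors (14.7 and 12.3 FPKM in WT and 6.21 and 6.21 in KO), lower and Neurod1, a neurogenic factor that met the minimum only through the KO libraries (0.308 and 0.36 FPKM in WT and 2.97 and 3.33 in KO), higher. The summed level of neural markers was 49.1 to 58.1 FPKM in WT and 19 to 19.2 in KO, and their part in other results was not tested. Of 18 trophectoderm genes 6 rose and 4 fell. The keratin gene Krt7 had 0.854 and 0.358 FPKM in WT and 4.45 and 4.35 in KO (log2 fold change 1.77), and it met the minimum only through the KO libraries. Krt8, another keratin gene, fell (10.7 and 10.8 FPKM in WT and 6.53 and 5.39 in KO, log2 fold change -0.76, adjusted p = 0.0126).

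Among genes of the cell surface and matrix, 6 of 17 of the integrin and matrix list rose and 2 fell. Sdc4, a heparan sulfate proteoglycan, had 68.2 and 30.7 FPKM in WT and 156 and 139 in KO (log2 fold change 1.66, adjusted p = 0.0397). Gpc3, a glypican, had 23.1 and 20.5 FPKM in WT and 47.2 and 47.1 in KO (log2 fold change 1.08, SE 0.08, adjusted p = 0.00693). Itgb1, the common beta chain of integrins on chromosome 8, had 108 and 105 FPKM in WT and 62.4 and 56.7 in KO (log2 fold change -0.83, adjusted p = 0.00693), and -0.27 once centred per chromosome. Of 13 secreted proteases and their regulators 5 rose and 2 fell. Mmp14, a membrane-bound matrix protease, had 21.5 and 40.6 FPKM in WT and 8.39 and 7.25 in KO (log2 fold change -1.80, adjusted p = 0.0207), while Mmp2, the protease that it activates, had 1.39 and 1.89 FPKM in WT and 5.25 and 4.41 in KO (log2 fold change 1.15, adjusted p = 0.0101). The inhibitor gene Spint1 had 73.9 and 79.8 FPKM in WT and 128 and 129 in KO (log2 fold change 0.74, adjusted p = 0.00693). Fibroblast and feeder markers summed to 79.9 to 143 FPKM in WT and 175 to 210 in KO, almost all of it Vim, and 7 of 10 stayed below 1 FPKM in all 4 libraries, among them Col1a1 and Col3a1, with S100a4 and Lum listed at 0. Of 17 detoxification enzymes 6 rose and 4 fell. Cyp2s1, a cytochrome, rose (1.19), and Aldh1b1, a mitochondrial aldehyde dehydrogenase, fell (-0.80). Of 23 oxidative stress genes 5 rose and 5 fell, among them Gpx3, a secreted peroxidase, at 20.9 and 10.3 FPKM in WT and 52.8 and 40 in KO (log2 fold change 1.58, adjusted p = 0.0359), and Nqo1 and Hmox1, targets of NRF2 on chromosome 8, which fell by 1.15 and 0.99 on the log2 scale (-0.59 and -0.43 centred per chromosome).

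Of 45 splicing factors, which act in RNA handling, 5 rose and 6 fell, near the 11.7% higher and 16% lower among all genes. Of the 12 SR proteins among them 2 fell and 0 rose, and in 9 both KO libraries lay below both WT libraries, against 39.8% of all genes. Rbm47, an RNA-binding protein of epithelia, had 2.93 and 2.19 FPKM in WT and 7.74 and 7.8 in KO (log2 fold change 1.31, adjusted p = 0.00757). Ptbp2, a splicing repressor known from neurons, had 8.53 and 8.35 FPKM in WT and 15.1 and 15.9 in KO (log2 fold change 0.81, adjusted p = 0.00693). Srsf7, an SR protein, fell (231 and 250 FPKM in WT and 163 and 161 in KO, log2 fold change -0.56, adjusted p = 0.00856). Of 28 translation initiation factors 3 rose and 4 fell, also near those shares among all genes. Eif4a2, an RNA helicase of the cap complex, had 163 and 136 FPKM in WT and 347 and 346 in KO (log2 fold change 1.21, SE 0.10, adjusted p = 0.00693), with the KO libraries nearly equal and far above WT. Eif4ebp1, which blocks the cap complex and lies on chromosome 8, was at 466 and 443 FPKM in WT and 260 and 294 in KO (log2 fold change -0.72, adjusted p = 0.00845), and at -0.15, no longer past the threshold, once centred per chromosome. Of 25 proteasome genes 1 rose and 0 fell. Of 11 histone variants 2 rose and 5 fell, with H2afy, which encodes macroH2A1, at 129 and 182 FPKM in WT and 8.38 and 9 in KO (log2 fold change -3.99, adjusted p = 0.00566). Its paralog H2afy2 had 45.3 and 47.6 FPKM in WT and 33.5 and 30.6 in KO (log2 fold change -0.52, adjusted p = 0.0123). Cenpa, the histone of centromeres, had 153 and 146 FPKM in WT and 105 and 105 in KO (log2 fold change -0.50, adjusted p = 0.00859).

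**Figure D3:**
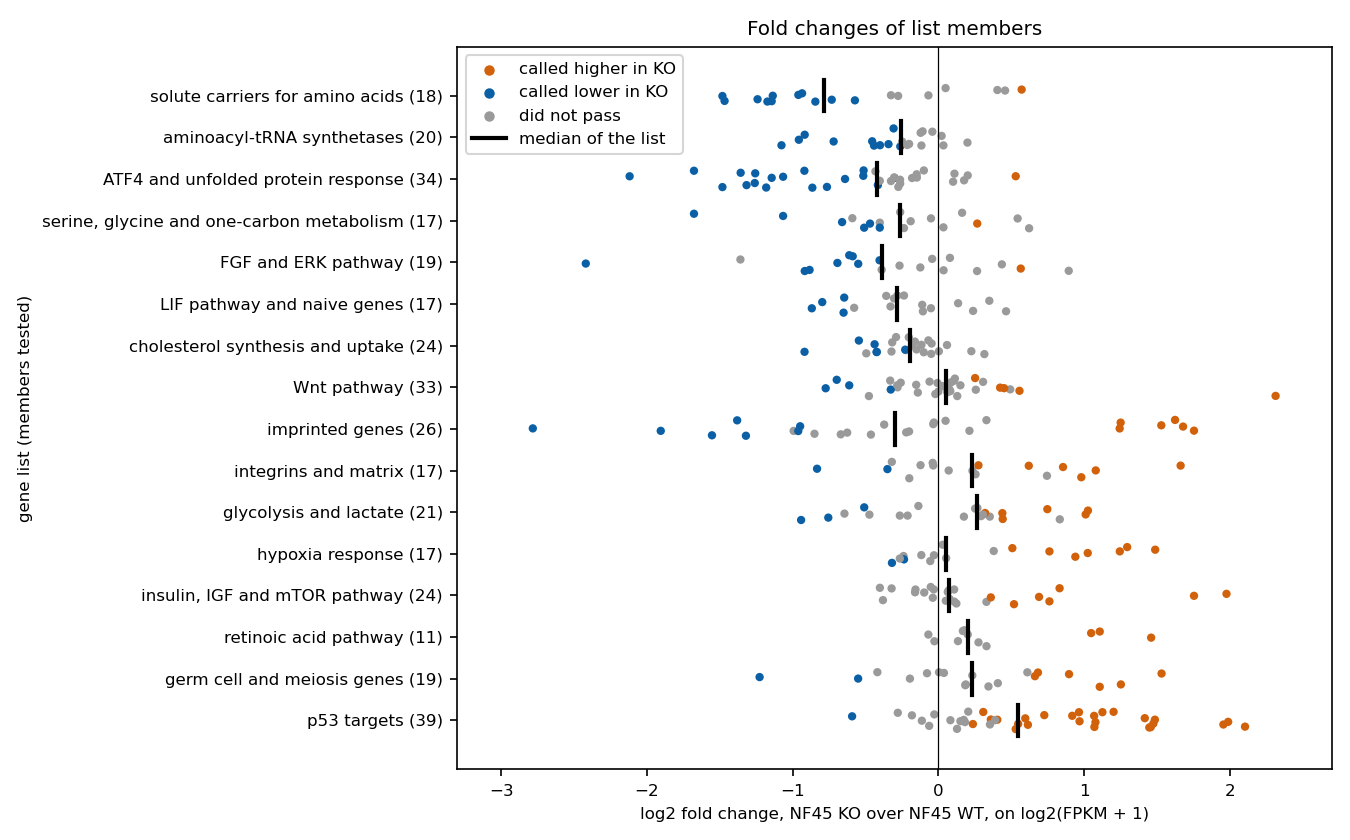
Log2 fold change in NF45 KO of the tested members of 16 gene lists, coloured by call, with a bar at each list's median and the number tested in brackets. The median is -0.79 for amino acid carriers and 0.55 for p53 targets, against -0.03 for all genes.

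Levels were also shifted by chromosome. The median fold change was -0.48 on chromosome 6, a ratio of 0.716, and -0.50 on chromosome 8, a ratio of 0.709. On chromosome 6, 336 of 542 genes fell (62.0%) and 21 rose, and on chromosome 8, 420 of 630 fell (66.7%) and 10 rose. Across 10 bins of equal gene number along each chromosome the medians ran from -0.59 to -0.39 on chromosome 6 and from -0.53 to -0.46 on chromosome 8, so the shift spanned the whole of both. Both WT libraries lay above and both KO libraries below the mean, by 0.267 and 0.237 against -0.248 and -0.241 on chromosome 6. Chromosomes 13 and 14 were shifted in WT library 2 alone (by 0.362 and 0.398), and the medians of the other 16 chromosomes, X included and Y left out, lay between -0.04 and 0.05. Chromosomes 6 and 8 hold 10.2% of the tested genes and 756 of the 1833 lower calls (41.2%), and of these 605 were lost, 125 kept and 26 turned higher when each library was centred per chromosome. H2afy lies on chromosome 13, and its fold change with that centring is not given here. Among other genes named on chromosomes 13 and 14, Iars (-0.82), Slc7a7 (-1.31), Mmp14 (-1.64), Bmp4 (-0.76) and Spry2 (-0.54) passed with that centring too. So did Bid (-0.65) and Edem1 (-0.75) on chromosome 6 and Syce2 (-0.67) and Tubb3 (-1.11) on chromosome 8. A gene of these chromosomes that is named here as lower carries this shift, and its part in each result was not tested.

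**Figure D4:**
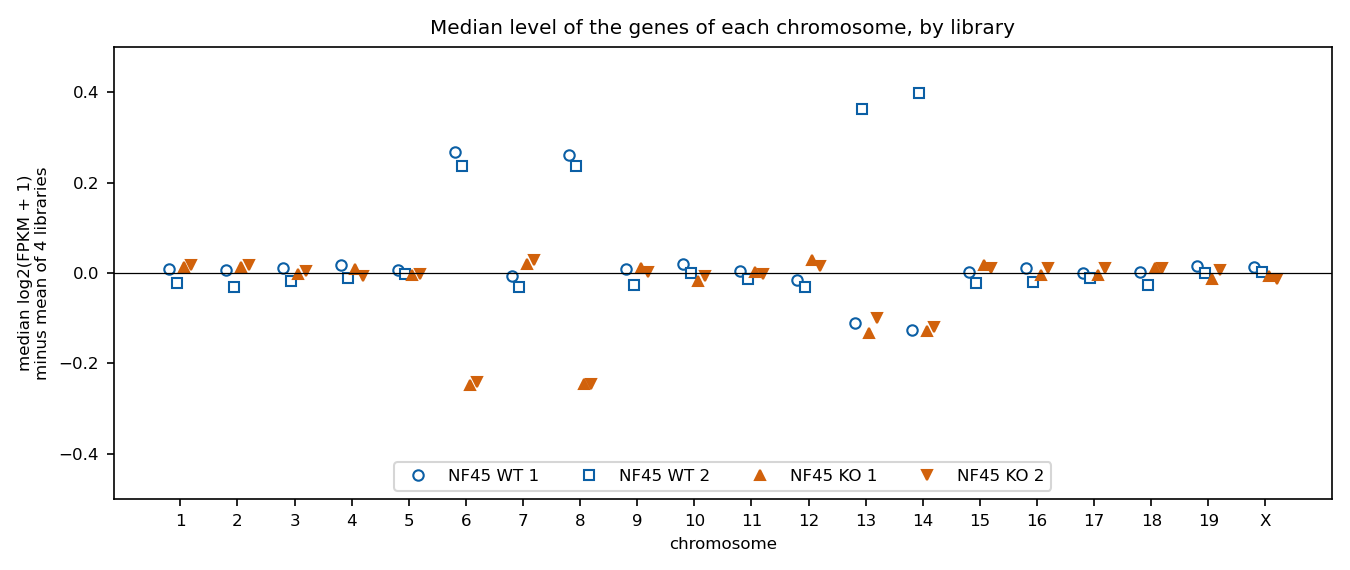
Median log2(FPKM + 1) of the genes of each chromosome in each library, minus the mean of the 4 libraries. The 2 WT libraries are at 0.267 and 0.237 and the 2 KO libraries at -0.248 and -0.241 on chromosome 6, chromosome 8 shows the same pattern, and chromosomes 13 and 14 stand out in WT library 2 only.

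The effect of losing NF45 was set against that of losing NF90 and NF110 by testing the difference of the fold changes, in a fit over the NF45 libraries and the inputs. These experiments differ in kit (poly(A) selection against ribosomal RNA depletion) and share no library. The difference passed for 758 genes (6.6%), more positive in NF45 KO in 293 (2.55%) and more negative in 465 (4.05%). In that fit 79 genes (0.688%) were called for NF90+NF110 KO itself. With each library centred per chromosome the difference passed for 563 genes, more positive in 250 and more negative in 313. With only the 10 libraries compared, without the NF110 KO inputs, it passed for 632. Herc4, a ubiquitin ligase, had 63.5 and 52.6 FPKM in WT and 11.2 and 11 in KO (-2.28) and moved by -0.09 in NF90+NF110 KO (difference -2.19, SE 0.13, adjusted p = 6.2e-06). Spink1, a secreted trypsin inhibitor, was at 0.418 and 0.348 FPKM in WT and 3.68 and 4.82 in KO, moved by 0.00 in the other knockout (difference 1.92) and met the minimum only through the NF45 KO libraries. Atf4 differed (difference -1.23, SE 0.21, adjusted p = 0.00737), as did Aars (difference -1.06, SE 0.12, adjusted p = 0.00114), Herpud1 (difference -2.01, SE 0.35, adjusted p = 0.00732), Eif4a2 (difference 1.35, SE 0.19, adjusted p = 0.00273), Gpc3 (difference 1.36, SE 0.14, adjusted p = 0.000997) and Igfbp4 (difference 2.04, SE 0.38, adjusted p = 0.0106). In these 6 genes the fold change in NF90+NF110 KO lay between -0.28 and 0.05. Aars and Herpud1 lie on chromosome 8, which was shifted in the NF45 libraries, and the part of that shift was not tested. Pcmt1, a repair enzyme of proteins, fell here, with 27.5 and 24.8 FPKM in WT and 5.4 and 6.2 in KO, and moved by -1.89 in NF90+NF110 KO (difference -0.11, SE 0.18, adjusted p = 0.764). Of the genes at least 2-fold higher in NF45 KO, 81.0% had a positive fold change in NF90+NF110 KO, against 46.3% of all genes, and of those at least 2-fold lower 72.6% had a negative one, against 53.7%. For Slc7a5, Slc3a2 and Slc7a1 the difference did not pass (adjusted p = 0.081, 0.09 and 0.12).

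**Figure D5:**
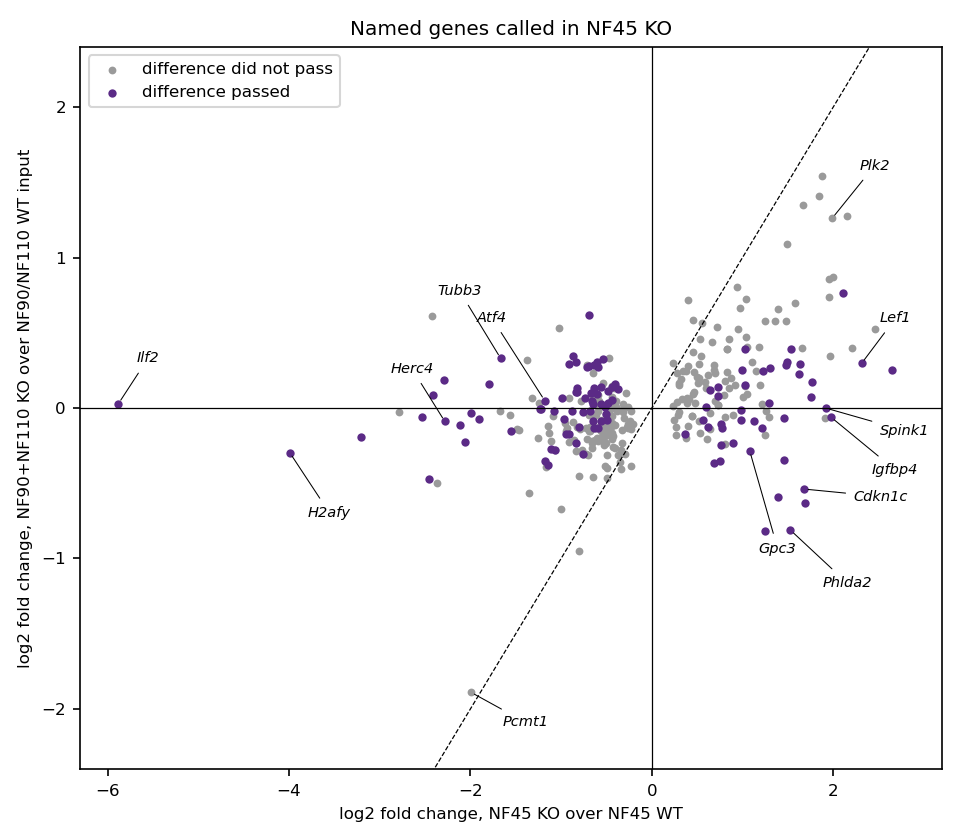
Log2 fold change in NF45 KO (x axis) and in NF90+NF110 KO inputs (y axis) of the 341 named genes called in NF45 KO, dark where the difference passed (110 genes), with the dashed line at equal change. Most points lie near the horizontal line of no change in NF90+NF110 KO, Pcmt1 lies near the dashed line, and 234 of the genes have the same sign in both.

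Shares of calls by level include genes that passed the minimum through 1 group alone. Below a mean of 2 FPKM 17.1% of 1178 genes rose and 10.8% fell, and at 50 FPKM or more 10.8% of 2037 genes rose and 17.8% fell. Genes at least 2-fold higher, 211 in all (1.84%), had a median of 12 CpG in their promoter window against 21 for all genes. Their median WT level was also lower, at 2.48 FPKM against 13.9, and the part of level was not tested. Genes at least 2-fold lower, 157 in all (1.37%), had a median of 18 CpG. Counting by reads with edgeR gave 1536 genes higher (13.4%) and 1584 lower (13.8%), against 1338 and 1833 by limma. Both limma and edgeR called 2802 genes, all of them in the same direction. At a mean of 5 FPKM or more, 17 of 2418 called genes had estimates that differed by over 0.5 on the log2 scale. In the table deposited by the authors, 3789 of these genes were called at an adjusted p under 0.05, and 3019 of them were called by limma in the same direction, 95.2% of the limma calls and 79.7% of the authors' calls.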

How the data were processed

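Poly(A) RNA of 2 NF45 WT and 2 NF45 KO libraries was analysed. Per the submitters' processing notes the tools were TopHat2 2.0.10, Cufflinks 2.2.1, Cuffnorm, HTSeq 0.6.1 and DESeq2 with the mm10 build; their roles are not given in the sources used. One table deposited by the authors gives FPKM, a level scaled to transcript length and depth. Per the file headers the other gives normalised counts (signal), that is reads divided by a factor per library, and the authors' own log2 fold changes, Wald statistics (a score) and p-values. Per the file headers the WT libraries are named Rev, a name left unexplained there. Multi-copy genes, and genes whose deposited level is near 0 although every cell uses them (Gapdh, Pgk1), are uncertain.

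Genes with at least 1 FPKM in 2 or more of the 4 libraries were tested on log2(FPKM + 1) with limma 3.58.1 in R 4.3.3 (trend, robust), 2 libraries per group and no block, with Benjamini-Hochberg adjustment over all 11481 genes, two-sided. The difference between knockouts was fitted by limma over the 4 NF45 libraries and 9 inputs. That fit shared 1 estimate of each gene's spread across both kits. The depths differed too (49.1 to 68.8 M reads in genes for NF45 libraries, 9.5 to 11.9 M for inputs). Dividing each library's normalised counts by its smallest value gave whole reads (100% of values within 0.1), and edgeR 4.0.16 on these called 3120 genes; DESeq2 1.42.0 was also run. The labels do not say what replicate numbers mark, so they were treated as names of samples. Deviations of the number 1 libraries of WT and KO correlated at 0.245 across genes. With 2 libraries per group the deviations mirror each other and only 2 pairs exist, so this cannot tell whether libraries are paired.

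Lists and members were chosen with earlier results of these data known, so list counts are descriptions beside the count over all genes. Named by rule were the DZF family, the 15 largest rises and falls, the 10 most abundant called genes per direction, up to 6 called and 4 other members of each list, and the 8 largest differences between knockouts per direction; other list members named, such as Nodal, Plagl1, Atf3, Ccng1, Mdm2 and Dio3, were chosen after their values were seen. Some results of listed genes are not reported here. Promoters are RefSeq windows on GRCm38.p6, matched by symbol for 9249 tested genes. A gene with several RefSeq starts counted as holding a match if any of its windows did, and the first such window was shown.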

Additional observations from a re-analysis of the deposited data

How the results depend on the processing

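The count of 3171 called genes stayed within 1.5 times under the other pseudocount, minimum, scaling, chromosome and test settings tried (2726 to 3728), with 2960 under the replicate block, and fell to 917 (358 higher, 559 lower) when limma tested against a fold of 1.2. Without 1 replicate it ran from 0 to 6184 (higher 0 to 2691, lower 0 to 3493), and with edgeR on the recovered reads, a check chosen after seeing the data, from 0 to 6500 (higher 0 to 3168, lower 0 to 3332), with 5317 (2582 higher) without WT library 2. Limma called 1 and 0 genes without KO library 1 or 2 (2445 and 2478 at an unadjusted p under 0.05), and edgeR 0 and 0 (2384 and 2491). The cause was not tested.

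The difference between knockouts passed for 758 genes as reported, for 1083 under the replicate block, and for 188 to 888 without 1 replicate (more positive 50 to 341, more negative 138 to 550). The medians of chromosomes 6 and 8 were -0.51 and -0.53 with the pseudocount of 0.1 and ran from -0.50 to -0.48 and from -0.51 to -0.48 without 1 replicate. Those of chromosomes 13 and 14 ran from -0.48 to -0.00034 and from -0.53 to 0.0029, the upper ends without WT library 2.

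Of 150 genes followed singly, 138 to 147 kept their direction and their side of the threshold under another pseudocount, scaling, chromosome centring or test, with no FPKM minimum or under the replicate block. The number was 110 against a fold of 1.2, and 25 to 138 without 1 replicate. No called gene among them reversed to a call in the other direction.

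With 2 libraries per group, a lone left-out fit assumes that the remaining sample varies like the other group, and a gene that did not pass is not shown to be equal.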

Other observations

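Of 24 genes of cholesterol synthesis and uptake 6 fell and 0 rose, and of 16 of fatty acid synthesis 6 fell and 1 rose, against 16% lower and 11.7% higher among all genes. Acsl3, which activates fatty acids, had 48.8 and 43.2 FPKM in WT and 27.5 and 30.2 in KO (log2 fold change -0.65, adjusted p = 0.0121), and Acaca, which makes malonyl-CoA, 5.45 and 5.96 against 3.7 and 3.83 (-0.49). Msmo1, a sterol oxidase on chromosome 8, fell (-0.92) and did not pass once centred per chromosome (-0.36).

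Of 14 Notch genes 2 rose and 3 fell, near the shares among all genes. Those higher were the ligand gene Jag1 (2.55 and 2.53 against 5.19 and 5.23 FPKM, log2 fold change 0.81) and the receptor gene Notch3 (6.12 and 5.46 against 15.5 and 12.3, 1.13). Those lower were Hes1, Hes6 and Nrarp, all effectors or targets (-0.30, -0.69 and -0.56). Of 17 homeobox genes 1 rose and 5 fell. Otx2, a forebrain factor on chromosome 14, had 11.8 and 5.77 FPKM in WT and 20.1 and 23.9 in KO (1.30, adjusted p = 0.0479), and it did not pass once centred per chromosome (1.45, adjusted p = 0.063). Rhox5, an X-linked factor of the reproductive cluster, had 128 and 87.8 against 25.8 and 48.1 (-1.56), and Hoxb9, of the posterior body axis, 2.34 and 2.77 against 0.659 and 0.633 (-1.11), so that it met the minimum only through the WT libraries.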
